A study of Mus musculus with 5 samples.

Results

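The BCL2 family decides whether a cell lives or dies by apoptosis, and 9 of its genes were examined for binding sites of EBF1 in mouse pro-B cells. EBF1 is a DNA-binding factor without which B cells do not form. The 9 genes were a named list: the pro-survival genes Bcl2, Bcl2l1 (encoding BCL-XL) and Mcl1, the death effectors Bax and Bak1, and the BH3-only genes Bcl2l11 (BIM), Bbc3 (PUMA), Pmaip1 (NOXA) and Bmf. They are 9 of 21521 protein-coding genes of the RefSeq annotation. A site belonged to a gene if its centre lay inside the gene's RefSeq span, or if it lay in no coding gene and that gene was the nearest within 100 kb. By this rule 15 of the 7082 sites assigned to a coding gene belonged to the 9 genes.

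The series holds 5 libraries, and the sites come from 1 of them, an EBF1 chromatin immunoprecipitation (ChIP) in pro-B cells labelled EBF1 wt. These were fetal liver cells of genotype Ebf1-/- that had received wild-type EBF1 by transduction, so the EBF1 precipitated was introduced and not made from the cells' own locus. The other groups, 1 library each, were EBF1 ChIP with an EBF1 form called YmA, ChIP of the chromatin remodeller BRG1 with YmA, and 2 inputs, 1 for each antibody, all on the same Ebf1-/- background per the labels' protocols. They were not analysed here. The sources used here do not give the promoter that drove the introduced EBF1.

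The list held 7494 sites of 300 bp and no score. How strongly a site was bound, and at what read depth, is therefore unknown, and no site has a replicate check. Each site carried 1 of 3 of the authors' class names, CTD-ind (2550 sites, 34.0%), YmA-ind (4055, 54.1%) and YmA-dep (889, 11.9%), used here as labels only, since the sources used here do not say how they were assigned. A site list shows binding and not RNA, so it could not check the cell type. It could check only that the ChIP enriched genes chosen as known EBF1 targets. Of these, Cd79a, Cd79b, Igll1, Vpreb1, Pax5 and Blnk each had a site, against 19.6% of all coding genes.

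As background, BCL-2, BCL-XL and MCL-1 hold cells alive by binding the proteins that would otherwise start apoptosis. BAX and BAK, once free, form pores in the outer mitochondrial membrane, and cytochrome c then escapes and activates caspases. BH3-only proteins carry stress signals to this switch by occupying the pro-survival proteins, and some of them also activate BAX and BAK directly. Developing B cells live on interleukin-7 and receptor signals that act partly through this balance: MCL-1 is needed by early B-cell progenitors, and BIM removes autoreactive B cells.

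Promoter sequences are shown first, because no site lay at the starts of these genes, and Bid, a gene of the same family, is shown for comparison. RefSeq windows of 300 bases (250 before and 50 after an annotated start, GRCm38.p6) were matched for 8 of the 9 genes, all but Pmaip1, and gave 15 windows. None of the 15 was touched by a site, and the list touched 680 of 32851 windows in all. EBF1 binds a palindrome with the core CCCNNGGG, often with a T before it and an A after it. Both strands were searched for the core with these flanks, called the longer core here, and for CCCNNGGG alone, the shorter core, which lies within it. The longer core was in 0 of the 15 windows, and in 0.904% of all windows. The shorter one was in 4 of the 15 windows, 1 each of Bcl2 and Bcl2l1 and 2 of Bbc3, and in 13.7% of all windows. Among the 438 windows of which 150 or more bases lay under a site, the shares were 16.4% for the longer and 58.2% for the shorter core. The windows of Bcl2 (chr1:106714241-106714540, minus strand), Bcl2l1 (chr2:152828440-152828739, minus strand) and Bbc3 (chr7:16310011-16310310, plus strand) hold the shorter core without a site. Those of Bcl2l1 and Bbc3 lie wholly inside the gene's span, at a start that is not its outermost, and the other matching Bbc3 window is not shown. The window of Bid, a BH3-only gene that is not among the 9 (chr6:120916775-120917074, minus strand), holds the shorter core under a site. Sites also covered windows without it: those of Birc5, the survivin gene, and of Ftl1, the neighbour of Bax, had 290 and 295 of 300 bases under a CTD-ind site and held neither core. Each is written 5′ to 3′ on the gene's strand with the match in capitals.
Bcl2: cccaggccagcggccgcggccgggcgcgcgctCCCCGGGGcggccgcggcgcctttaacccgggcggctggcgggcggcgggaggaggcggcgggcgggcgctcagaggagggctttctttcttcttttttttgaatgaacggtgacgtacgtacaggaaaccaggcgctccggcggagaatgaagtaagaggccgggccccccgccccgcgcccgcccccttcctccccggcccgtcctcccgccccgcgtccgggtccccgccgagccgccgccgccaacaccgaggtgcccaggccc
Bcl2l1: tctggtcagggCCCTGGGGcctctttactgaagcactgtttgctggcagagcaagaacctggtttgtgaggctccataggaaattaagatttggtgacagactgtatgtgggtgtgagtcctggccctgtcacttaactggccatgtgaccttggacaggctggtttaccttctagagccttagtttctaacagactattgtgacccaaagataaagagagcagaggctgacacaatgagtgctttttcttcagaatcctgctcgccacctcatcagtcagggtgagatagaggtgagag
Bbc3: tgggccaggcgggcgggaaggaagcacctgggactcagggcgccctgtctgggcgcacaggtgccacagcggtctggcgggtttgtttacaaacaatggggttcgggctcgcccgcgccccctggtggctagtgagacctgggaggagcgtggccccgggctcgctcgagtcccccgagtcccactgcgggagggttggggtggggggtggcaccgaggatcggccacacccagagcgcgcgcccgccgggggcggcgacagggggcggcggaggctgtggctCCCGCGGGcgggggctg
Bid: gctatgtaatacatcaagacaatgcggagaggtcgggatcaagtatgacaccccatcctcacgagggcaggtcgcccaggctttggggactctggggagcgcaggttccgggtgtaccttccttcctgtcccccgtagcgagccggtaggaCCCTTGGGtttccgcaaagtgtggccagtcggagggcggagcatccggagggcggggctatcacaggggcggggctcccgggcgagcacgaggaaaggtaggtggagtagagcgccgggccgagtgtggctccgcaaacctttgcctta

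In the Bid window the match CCCTTGGG lay 37 bp from the centre of a CTD-ind site that covered 268 of the 300 bases. The matches CCCCGGGG of Bcl2, CCCTGGGG of Bcl2l1 and CCCGCGGG of Bbc3 lay 51.3, 12.7 and 56.0 kb from the centre of the nearest site. A match is a description of these letters and not a binding site, and the windows without one say nothing about the factor elsewhere in the gene.

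Sites were found at 7 of the 9 genes, at all 3 pro-survival genes and at 4 of the 6 pro-death genes. Over all coding genes 19.6% had a site. Bax and Bbc3 had none, Mcl1 and Bak1 had 1 each, Bcl2, Bcl2l11, Pmaip1 and Bmf had 2 each, and Bcl2l1 had 5. Thus 5 of the 9 genes had 2 or more sites, against 6.78% of coding genes, and 1 had 5 or more, against 0.869%. These counts are descriptions of 1 library and a chosen list, and no test was made. The stretch of chromosome from which a gene could receive sites, here called its territory, had a median of 69.7 kb in the 9 genes and 44.3 kb over all coding genes. Per 100 kb of territory the 9 genes had 1.90 sites, and all coding genes had 0.381.

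**Figure D1:**
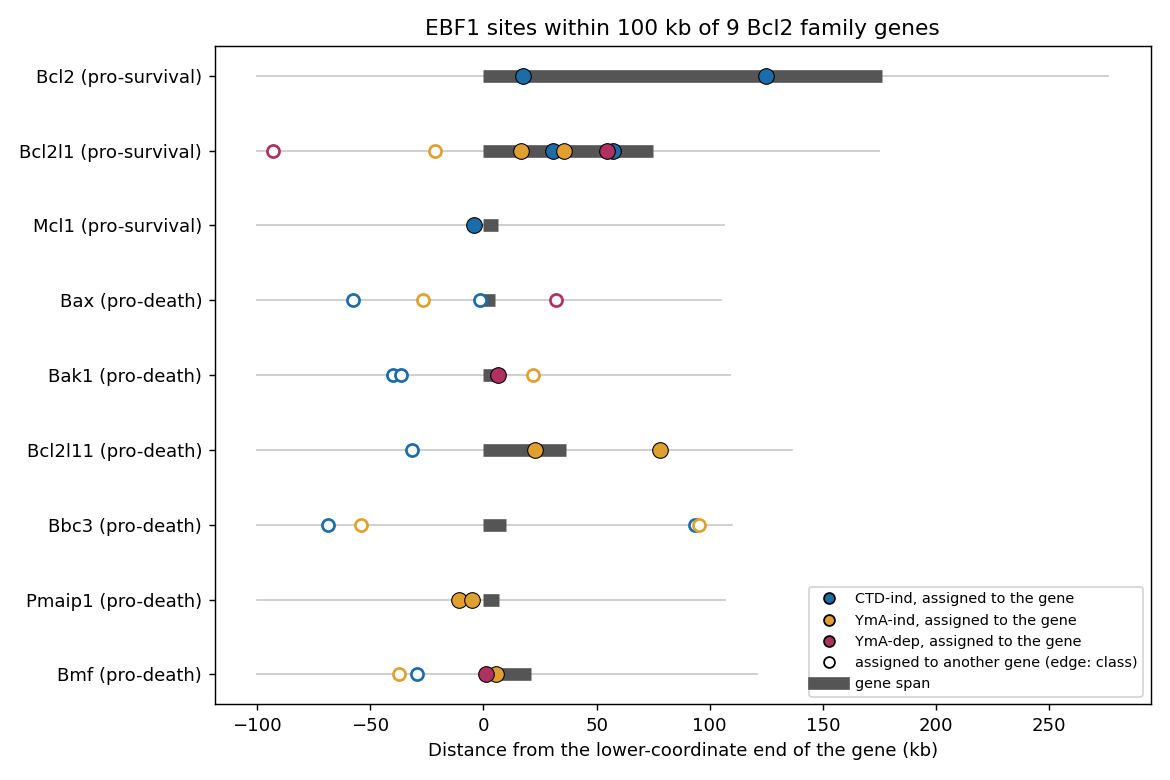
Map of EBF1 sites around the 9 genes, 1 gene per row, with distance in kb from the lower-coordinate end of the gene on the x axis. Thick bars are gene spans, filled circles are the 15 sites assigned to the gene, coloured by class, and open circles are sites within 100 kb that were assigned to another gene. The filled circles of the pro-survival genes include 5 CTD-ind sites, those of the pro-death genes none.

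Bcl2, the founding pro-survival gene (RefSeq gene 12043, chr1:106538176-106714290, minus strand), had both of its sites inside the gene, and both were CTD-ind. The site at chr1:106663082-106663381 was 51.1 kb downstream of the annotated start and 125 kb from the other end. The site at chr1:106555536-106555835 was 159 kb downstream of the start and 17.5 kb from the far end. Both therefore lay deep in the 176 kb span, 108 kb apart, and no other site of the list lay within 100 kb of the gene. The gene table gives no exons, so exon and intron could not be told apart at any site. Of the 815 coding genes with exactly 2 sites, 12.5% had CTD-ind sites alone, as Bcl2 did. Because its territory is long (251 kb), Bcl2 had 0.796 sites per 100 kb, and at the mean density of the list it would have held 0.956 sites in all.

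Bcl2l1, which encodes BCL-XL and its shorter pro-death splice form BCL-XS (gene 12048, chr2:152758732-152833803, minus strand), had the most sites of the 9 genes. All 5 lay inside the 75.1 kb span and they covered all 3 classes: 2 CTD-ind, 2 YmA-ind and 1 YmA-dep. In order from the start of the gene, a CTD-ind site (chr2:152815833-152816132) lay 12.5 kb downstream of the nearest annotated start. A YmA-dep site (chr2:152813349-152813648) followed at 15.0 kb and a YmA-ind site (chr2:152794248-152794547) at 34.1 kb. A CTD-ind site (chr2:152789182-152789481) lay at 39.2 kb, and the last, a YmA-ind site (chr2:152775374-152775673), at 53.0 kb.

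The sites of Bcl2l1 thus began well inside the gene and stopped 16.8 kb before its far end. Neighbouring sites were 2.48 kb (CTD-ind and YmA-dep), 19.1 kb, 5.07 kb (YmA-ind and CTD-ind) and 13.8 kb apart, so sites of different classes stood next to each other at each step. The gene had 6.59 sites per 100 kb of territory. At the list's mean density its 75.8 kb would have held 0.289 sites. Among the 87 coding genes with exactly 5 sites, 27 (31.0%) held all 3 classes. Besides Bcl2l1, 6 coding genes had the same class counts, and Wdr66, Acsl1, Trak1 and Plekhm3 were among those closest to it in territory. A likeness in these 3 counts from 1 library says nothing of shared function. Within 100 kb lay 2 further sites assigned to other genes, a YmA-ind site inside Id1, an inhibitor of E proteins, 21.6 kb away, and a YmA-dep site near H13 at 93.2 kb.

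Mcl1, whose short-lived protein early B-cell progenitors need (gene 17210, chr3:95656944-95663179, plus strand), had 1 site, again CTD-ind. The site at chr3:95652438-95652737 lay outside the gene, 4.36 kb before its lower end and 6.13 kb upstream of the start in the promoter table. It was the only site within 100 kb of the gene. Its territory of 25.2 kb would have held 0.0958 sites at the list's mean density. All 3 pro-survival genes therefore had at least 1 CTD-ind site, a class found at 9.32% of coding genes, and Bcl2l1 alone of them had the other classes.

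The pore-forming effectors had 1 site between them. Bak1 (gene 12018, chr17:27019812-27028627, minus strand) had a YmA-dep site at chr17:27025992-27026291, inside the gene and 2.49 kb downstream of its start, which was the site nearest to a start of its own gene among the 9 genes. That position also lies in Ggnbp1 (chr17:27018035-27036378), whose longer span contains all of Bak1, and the site was given to Bak1 as the shorter gene. Bax (gene 12028, chr7:45461695-45466903, minus strand) had no assigned site. A CTD-ind site at chr7:45459842-45460141 lay 1.70 kb from Bax, but 105 bp outside Ftl1, the ferritin light chain gene, to which it was assigned. It covered 295 of the 300 bases of the Ftl1 promoter window. The territory of Bax is 9.14 kb, which would have held 0.0348 sites at the list's mean density, so that its count of 0 says little.

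BH3-only genes had 6 sites, 5 YmA-ind and 1 YmA-dep. Bcl2l11 (gene 12125, chr2:128126038-128162547, plus strand) had a YmA-ind site inside the gene at chr2:128148710-128149009, 21.3 kb downstream of the nearest annotated start and 13.7 kb from the far end. Its other YmA-ind site, at chr2:128204040-128204339, lay 41.6 kb beyond the far end, inside the long non-coding RNA gene Gm14009. Of all 15 sites this was the one farthest outside its gene. Beyond the limit of 100 kb, and so assigned to no coding gene, were YmA-ind sites at chr2:128373197-128373496 and chr2:128373844-128374143. They were 211 kb from Bcl2l11 and would be assigned to it without a limit. Both lie inside Morrbid (chr2:128298663-128429351), a long non-coding RNA gene known in myeloid cells to restrain Bcl2l11 expression. On the other side, a CTD-ind site inside Acoxl was 31.7 kb from Bcl2l11.

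Bmf, whose product links changes in the cytoskeleton to BCL-2 proteins (gene 171543, chr2:118528757-118549686, minus strand), had both sites inside the gene, towards its far end. The YmA-ind site (chr2:118534162-118534461) was 10.3 kb downstream of the nearest annotated start, and the YmA-dep site (chr2:118529638-118529937) was 14.8 kb downstream and 1.03 kb from the far end. Pmaip1, a target of p53 (gene 58801, chr18:66458604-66465558), had 2 YmA-ind sites, both outside the gene on the side of its lower coordinate. They lay at 5.16 kb (chr18:66453291-66453590) and 10.7 kb (chr18:66447778-66448077), 5.51 kb apart, and no other site was within 100 kb. Bbc3, also a p53 target (gene 170770, chr7:16308398-16318334, plus strand), had no assigned site, and the nearest, a YmA-ind site inside C5ar1, was 54.1 kb away. The territory of Bbc3, 21.7 kb, would have held 0.0826 sites at the list's mean density.

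**Figure D2:**
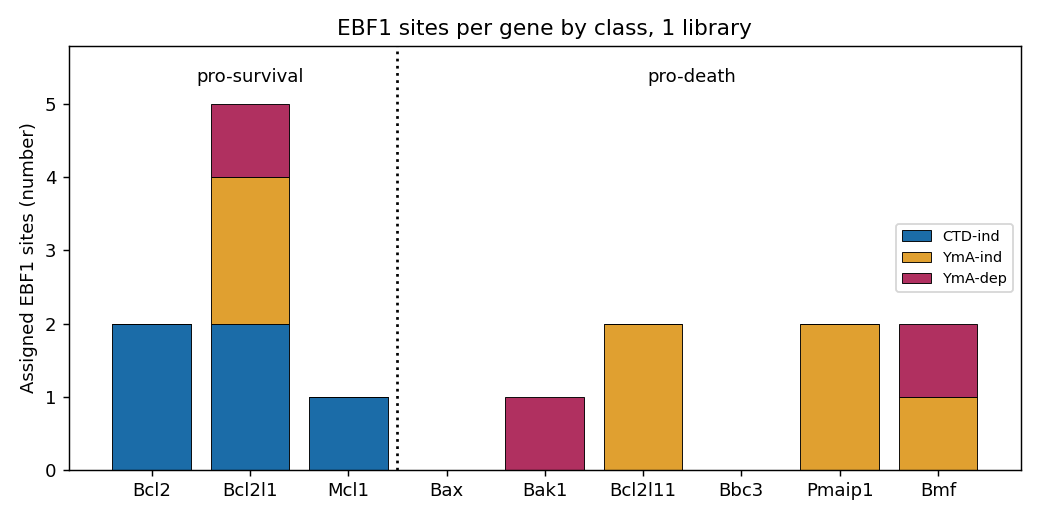
Number of assigned EBF1 sites per gene in 1 library, stacked by class, with the 3 pro-survival genes left of the dotted line and the 6 pro-death genes right of it. Bcl2l1 reaches 5 sites in 3 classes, and blue (CTD-ind) appears at Bcl2, Bcl2l1 and Mcl1 and at no pro-death gene.

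Side by side, CTD-ind sites were assigned to pro-survival genes and to no pro-death gene, while YmA-ind and YmA-dep sites were in both groups. Per 100 kb of territory the pro-survival genes had 2.27 sites and the pro-death genes 1.60. Single genes varied more than this, from 0.796 (Bcl2) to 6.59 (Bcl2l1) among the pro-survival genes. Among the pro-death genes the range was 0 (Bax and Bbc3) to 11.3 (Bak1). The 3 pro-survival genes had 8 sites, of which 5 were CTD-ind (62.5%, exact 95% binomial interval 24.5 to 91.5%), 2 YmA-ind and 1 YmA-dep. The 6 pro-death genes had 7 sites, of which 5 were YmA-ind (71.4%, 29.0 to 96.3%), 2 YmA-dep and 0 CTD-ind, which allows a CTD-ind share of up to 42.9% by the limit used here for a count of 0 (3 counts of the total). The exact interval of that share reaches 41.0%. Over all assigned sites, 35.1% were CTD-ind, 53.6% YmA-ind and 11.2% YmA-dep. Each of the printed intervals contains the share over all assigned sites, and intervals and limits here cover counting error only. By gene, CTD-ind sites were at 3 of 3 pro-survival and 0 of 6 pro-death genes (9.32% of coding genes). YmA-ind sites were at 1 of 3 and 3 of 6 (12.2%), and YmA-dep sites at 1 of 3 and 2 of 6 (3.26%). The difference between the groups was not tested, since sites of a gene share their source and genes are not replicates.

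**Figure D3:**
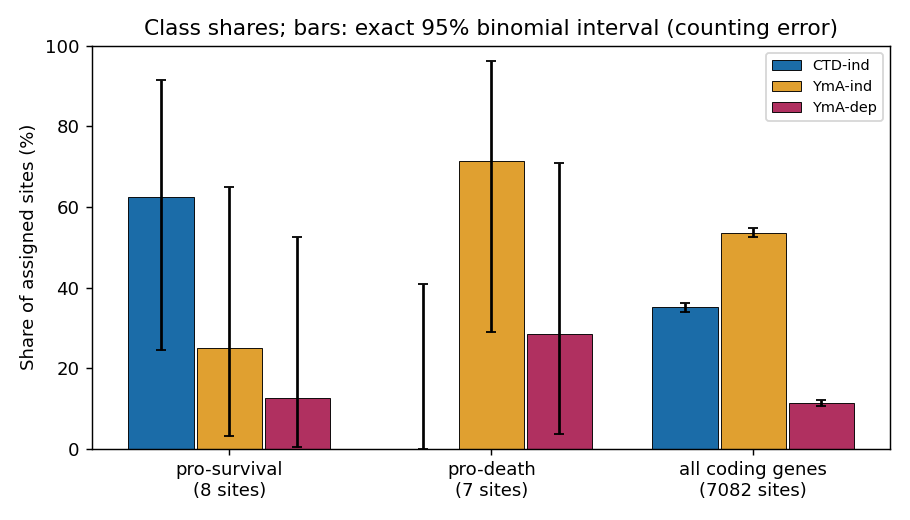
Share of assigned sites in each class (%), for the pro-survival genes, the pro-death genes and all coding genes, with exact 95% binomial intervals as error bars. The CTD-ind bar stands at 62.5% for pro-survival genes and at 0 for pro-death genes, with intervals that overlap the 35.1% of all assigned sites.

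The class counts depended on which gene a nearby site was given to. With every site inside a gene or within 10 kb of it counted, whichever gene holds it, Bax gained the CTD-ind site at Ftl1, and the pro-death genes had 1 CTD-ind, 3 YmA-ind and 2 YmA-dep sites. By that count 8 of the 9 genes had a site, all but Bbc3, against 22.3% of coding genes. Within 100 kb in any direction and regardless of assignment, pro-death genes had 21 sites, of which 8 were CTD-ind, and 5 of the 6 genes, all but Pmaip1, had a CTD-ind site. Pro-survival genes then had 10 sites, of which 5 were CTD-ind. The share of all coding genes with a CTD-ind site by this wide count was not computed. The count takes in sites inside or near neighbouring genes, so it is not read as a result about the 9 genes.

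Distance to gene ends is given here by group and class. For a site inside a gene it is bounded by the gene's span, and the spans differed between the groups. The 7 pro-survival sites inside a gene lay in Bcl2 and Bcl2l1, with spans of 176 and 75.1 kb. The 4 pro-death sites inside a gene lay in Bak1, Bcl2l11 and Bmf, with spans of 8.82 to 36.5 kb. None of the 15 sites lay within 1 kb of an end of its gene, which allows a share of up to 20% (3 counts of the total), and 16.1% of all assigned sites did. The YmA-dep site of Bmf, at 1.03 kb, was just past that distance, and within 5 kb there were 3 (20%, against 35.5%). Inside the gene lay 11 of the 15 (73.3%), against 59.6% of all assigned sites. The median distance to the nearer end was 16.8 kb for the 15 sites and 10.15 kb over all assigned sites. By group it was 19.1 kb for the 8 pro-survival sites and 5.55 kb for the 7 pro-death sites, of which 2 (28.6%) lay within 2.5 kb of an end, against 25.7% of all assigned sites. For the 5 CTD-ind sites of Bcl2, Bcl2l1 and Mcl1 it was 17.8 kb, with a range of 4.36 to 51.1 kb. Over all assigned CTD-ind sites the median was 5.18 kb, and 29.0% lay within 1 kb of an end of their gene. The 3 YmA-dep sites of Bcl2l1, Bak1 and Bmf had a median of 2.49 kb against 16.0 kb over all assigned YmA-dep sites. Their distances differed widely, at 1.03 kb for Bmf, 2.49 kb for Bak1 and 20.3 kb for Bcl2l1, so the Bcl2l1 site lay above that 16.0 kb. The 7 YmA-ind sites had a median of 13.7 kb against 12.6 kb. None of these differences was tested.

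The wider apoptosis pathway was described with a list of 41 further genes, of which 13 had a site (19.6% of coding genes) and 28 had none. No site was assigned to the 6 other pro-survival genes of the family, Bcl2l2, Bcl2a1a, Bcl2a1b, Bcl2a1c, Bcl2a1d and Bcl2l10. The Bcl2a1 genes are near-identical copies, among which reads may not have been placed, so their zeros are uncertain. Of 5 other pro-death genes, Bid and Bok had 1 site each, and Bad, Bik and Hrk had none. The Bid site (chr6:120916807-120917106) was CTD-ind and centred 132 bp upstream of the annotated start, so a pro-death gene outside the 9 carried a CTD-ind site at its promoter. The Bok site was YmA-ind and lay 5.07 kb upstream. The less studied relatives Bcl2l12 and Bcl2l15 had 2 YmA-ind sites each, and Bcl2l13 and Bcl2l14 none.

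In the mitochondrial death pathway, 4 of 16 genes (25%) had a site, against 19.6% of coding genes. Birc5, which encodes survivin, had a CTD-ind site (chr11:117848977-117849276) centred 110 bp upstream of its start. Xiap, a caspase inhibitor, had a CTD-ind site (chrX:42067980-42068279) 268 bp upstream of an annotated start, and Diablo, whose product blocks such inhibitors, had a CTD-ind site (chr5:123523707-123524006) 307 bp downstream of its start. Apaf1, the scaffold of the apoptosome, had a YmA-ind site 51.4 kb downstream. No site was assigned to Cycs, which encodes cytochrome c, to Casp6 or to Casp9. The sites of Bid, Birc5, Xiap and Diablo thus lay near annotated starts. Other pathway genes varied: a site of Stat5b lay 462 bp from a start and a site of Foxo3 88.3 kb. Of all 26 sites of the 41 genes, 4 (15.4%) lay within 1 kb of an end of their gene, against 16.1% of all assigned sites. These 4 were the sites of Bid, Birc5 and Diablo and a site of Bcl2l15. The Xiap site was 8.52 kb from the nearer end of its gene. The share of all assigned sites within 1 kb of a start was not computed. Among the 9 genes the site nearest to a start was that of Bak1 at 2.49 kb. None of these differences was tested.

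Among 10 upstream regulators, 5 (50%) had sites, against 19.6% of coding genes. Stat5b, which transmits interleukin-7 signals, had 6 (2 CTD-ind, 3 YmA-ind, 1 YmA-dep). Pim1, a survival kinase, had 5 (3 CTD-ind, 1 YmA-ind, 1 YmA-dep). Of these, 3 lay 44.2 to 53.3 kb upstream, inside the long non-coding RNA gene Gm36199. Foxo3, an activator of Bcl2l11 transcription, had 2 YmA-ind and 1 YmA-dep, all inside the gene. The NF-kappaB genes Nfkb1 and Rela had 1 each. Trp53, Mdm2, Myc, Pim2 and Stat5a had none assigned.

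**Figure D4:**
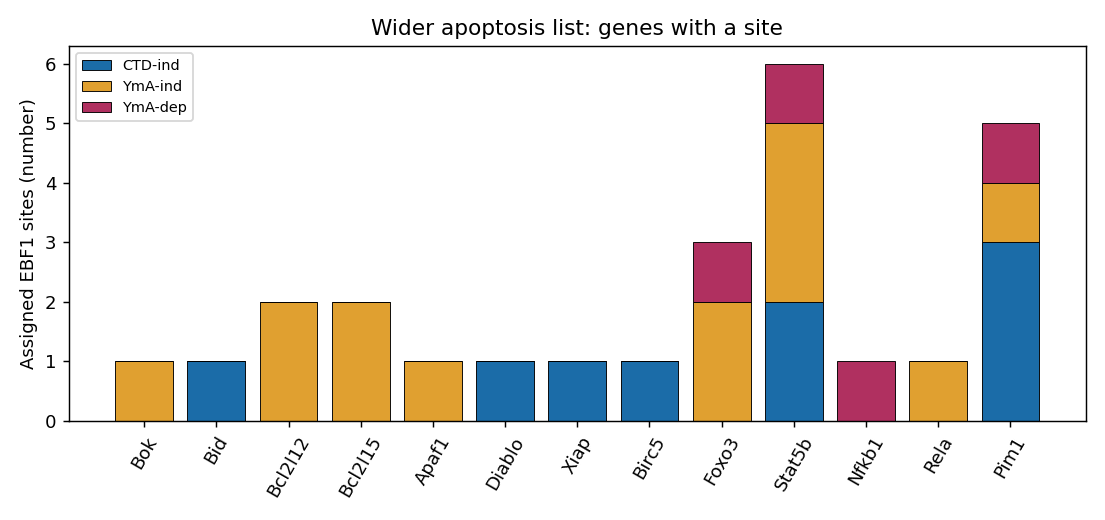
Number of assigned EBF1 sites for the 13 of 41 wider pathway genes that had a site, stacked by class, in 1 library. Stat5b (6) and Pim1 (5) hold the most, and Bid, Diablo, Xiap and Birc5 hold 1 CTD-ind site each.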

How the data were processed

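EBF1-bound sites of 1 ChIP library were analysed. The deposited file gives site positions in bp, with no score, and the authors' class for each site, per the file headers. Per the submitters' processing notes, Bowtie2, SAMtools and deepTools were used with GRCm38 (mm10). The sources used here do not name the peak caller, its threshold or the step that made the classes. Genes came from a RefSeq table of GRCm38.p6, without 345 genes of other scaffolds, and promoter windows with their strand from a RefSeq table of that build. Positions are 1-based. A site inside several coding genes was given to the shortest. Python 3.11.15 with pandas 2.3.3 and SciPy 1.17.1 was used. The assignment was tested on simulated data and recovered 200 of 200 sites planted inside genes that overlap no other coding gene. These planted sites did not try the nearest-gene rule or the choice between overlapping genes. Shares have exact (Clopper-Pearson) 95% intervals, and a count of 0 is given with a limit of 3 counts of the total.

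Genes and lists were chosen with earlier results of these data known. The 41 pathway genes were listed with the design, and all 9 genes, the pathway genes with a site and up to 5 genes alike in class counts are named, except a few that are not reported here. Genes without a site were named after their values were seen, as were windows with 150 or more bases under a site. No test was made, because there is 1 sample per group and a chosen list. Alternatives changed the distance limit, the assignment, the near-end distance and the motif.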

Additional observations from a re-analysis of the deposited data

How the results depend on the processing

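Of 108 alternative values of the group counts, 102 were within 1.5 times the reported count, and of 72 for single genes, 64 were. Pro-death YmA-ind sites went from 5 to 3 with a limit of 10 kb, and to 3 when sites inside or within 10 kb counted whichever gene holds them, and that count also took pro-death CTD-ind sites from 0 to 1. Sites near an end of their gene went from 0 within 1 kb to 2 within 2.5 kb and 3 within 5 kb, and genes with the motif in a promoter window from 0 to 3 with CCCNNGGG, while the core with AT-rich letters on both sides (ATT before, AAT after) was in 0 of 32851 windows. In each case the wider or narrower rule itself changed which sites or letters counted. For single genes, Bcl2l11 ranged from 1 to 4 sites and Pmaip1 from 1 to 2, Bax was at 0 or 1, and Bcl2, Bcl2l1, Mcl1, Bak1, Bmf and Bbc3 kept their counts in every assignment run. No paired analysis was possible because each group has 1 library. Because the depth is unknown, the lack of a site does not show that EBF1 was absent from a gene.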

Other observations

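Some apoptosis genes that received no site by assignment had one inside the gene or within 10 kb, assigned to another gene. With such sites counted, 16 of the 41 further genes had a site, against 13 by assignment. Over all coding genes the share by that count was 22.3%, against 19.6% by assignment. A CTD-ind site was centred inside Bad, a BH3-only gene on chromosome 19, but also inside the overlapping Gpr137, to which it was assigned, and it covered 58 of the 300 bases of a Bad promoter window. Stat5a, which adjoins Stat5b, had 3 sites inside it or within 10 kb, the nearest at 3.73 kb and assigned to Stat5b. Htra2, a mitochondrial protease gene, had 1 such site, a YmA-ind site 6.28 kb away assigned to Loxl3.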
